A study of Danio rerio with 6 samples.

Results

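The genes described here are structural, calcium-handling and regulatory genes of skeletal muscle, measured in blood progenitors sorted from zebrafish (Danio rerio) at 20 h post fertilization. They were chosen by name, from a list of 34 zebrafish symbols, and not by a threshold on their values. The list was drawn up with earlier results of these data known. Of these names 32 were matched to the gene table, and since paralogs are often listed there under the same capital symbol, the 32 names led to 41 gene IDs of 32520 in the count files. mylpfb and mylz3 had no entry of their own. The symbols ACTA1, TNNT3, MYL1, MYL11, TTN, DES and CASQ1 each stand for a pair of genes and TNNI2 for 6 genes, and the files do not say which ID is which paralog.

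Skeletal muscle contracts by sliding thin filaments of actin, tropomyosin and troponin past thick filaments of myosin. Titin and desmin hold the array together, and calcium released from and pumped back into the sarcoplasmic reticulum switches it on and off. In the zebrafish trunk, slow fibres arise next to the notochord and move to the surface of the myotome, while fast fibres form the bulk of it. The factors Myf5, MyoD, myogenin and Mrf4 turn mesoderm cells into muscle. Blood progenitors do not build sarcomeres, so these transcripts are not among the genes that define the sorted cell type.

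Embryos of both groups were digested with Liberase and sorted for red fluorescent protein (RFP), driven by a gene trap in blf. Each library came from 30000 sorted cells. There were 3 control libraries, whose genotype is given as blf-/- in the sample labels and as blf+/- in the series design, and 3 libraries labelled blf-/-; drl 4KO. blf and the draculin family (drl) code for zinc finger proteins found in early blood mesoderm. No source used here gives the number of embryos or clutches behind a library. The p-values therefore rest on the spread between libraries alone, which may be technical. Total counts ranged from 12751618 to 18101975 per library. The drl genes went with the labels in every library, with drl at 543 to 624 CPM (counts scaled to a common library size with TMM factors, the CPM of edgeR) in the controls and at most 0.396 CPM in the blf-/-;drl 4KO libraries. blf was at 2526 to 2835 CPM in the controls and at 45.3 to 118 CPM in the blf-/-;drl 4KO libraries. The control level of blf goes against a blf-/- label if that allele removes the transcript, which the sources used here do not state, and for blf the labels are therefore not settled by its level. Since RFP is read from blf, the gate rests on a locus whose own transcript differed between the groups.

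Transcripts of the muscle genes were present in every library and more abundant in the blf-/-;drl 4KO libraries. Together they reached 3831, 3309 and 1157 CPM in control replicates 1, 2 and 3, and 12724, 5851 and 17495 CPM in blf-/-;drl 4KO replicates 1, 2 and 3. The lowest blf-/-;drl 4KO library thus stood above the highest control, and the ratio of the group means was 4.35, from 2766 ± 1417 to 12023 ± 5853 CPM (SD, n = 3 each). As a share of all counts the genes took 0.0998% to 0.370% of the controls and 0.675% to 1.89% of the blf-/-;drl 4KO libraries. In bulk RNA, more muscle cells in the sort and more muscle RNA per cell cannot be told apart. CPM gives a share of the RNA in a library and not an amount, so a higher share does not show that muscle RNA increased.

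Of the 34 gene IDs with enough counts to be tested, 17 rose, 0 fell and 17 did not pass an adjusted p of 0.05 in edgeR's quasi-likelihood test. Over all 14517 genes tested, 13.0% were called higher and 9.92% lower. In 24 of the 34 all blf-/-;drl 4KO libraries lay above all controls, against 22.7% of all genes tested, and in 0 they lay below, against 19.8%. The median log2 fold change of the tested members was 2.03, and that of all genes tested was 0.11. Since the members were chosen with earlier results of these data known, the shares of all genes are a reference and not a test. A gene low in the controls could enter the test through the blf-/-;drl 4KO libraries alone. Of the tested members 30 had a control mean of at least 5 CPM, and 15 of these rose. The number of rises depended on single libraries. It was 11 without blf-/-;drl 4KO replicate 1 and 10 without blf-/-;drl 4KO replicate 3. Without any of the other 4 libraries in turn it was 16 to 20.

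**Figure D1:**
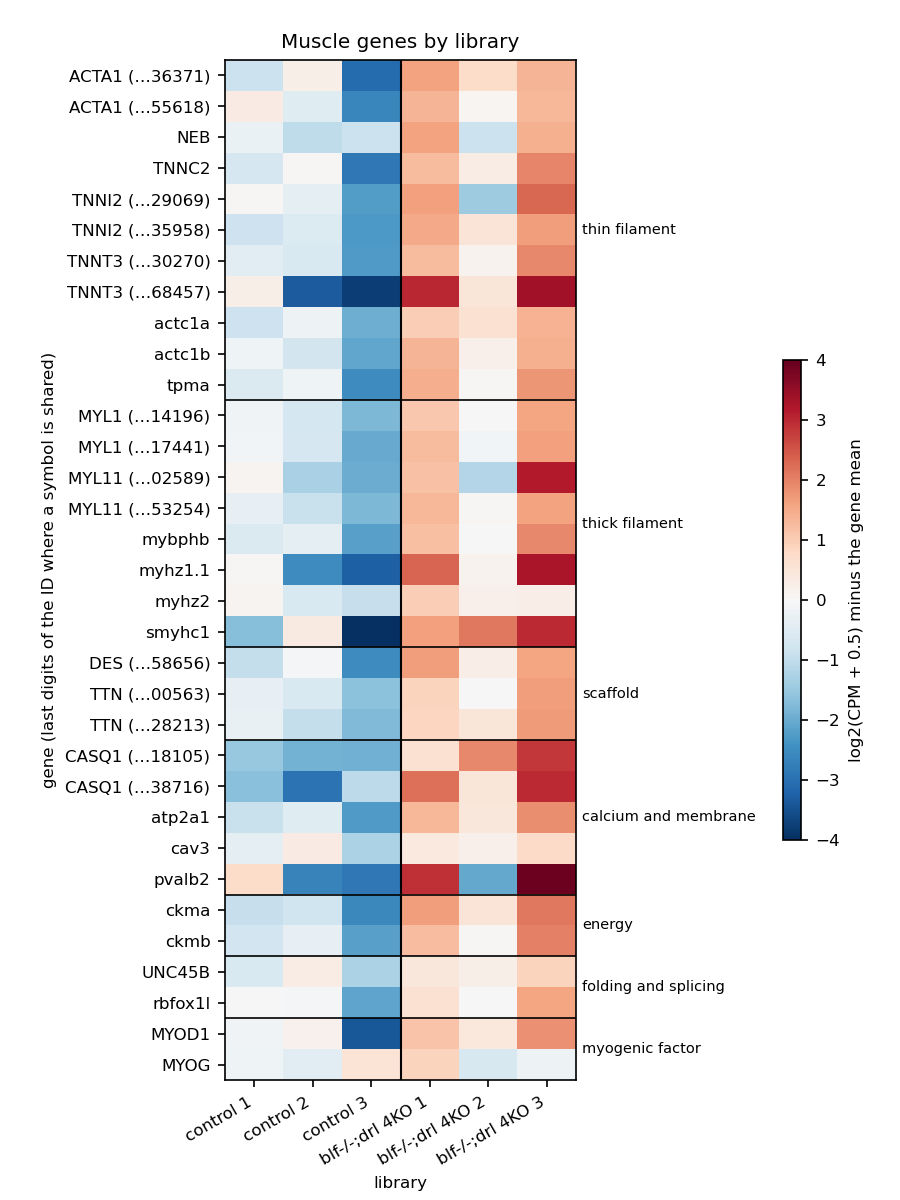
Level of the 33 muscle genes with a mean of at least 5 CPM in a group, by library. Colour gives log2(CPM + 0.5) minus the gene's mean over the 6 libraries, saturating at 4 in either direction, and rows are grouped by role. Control replicate 3 is the lowest control for 30 of the 33 genes, and blf-/-;drl 4KO replicate 2 the lowest of its group for 31.

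Of the actin genes of the thin filament, 2 of 4 rose, beside 13.0% of all tested genes. actc1b, an alpha-actin gene of zebrafish skeletal muscle, was at 1091, 742 and 291.0 CPM in the controls, against 3111, 1414 and 3264 CPM in the blf-/-;drl 4KO libraries. All blf-/-;drl 4KO values lay above all controls, and the smallest gap was between control replicate 1 and blf-/-;drl 4KO replicate 2. It rose 3.67-fold (log2 fold change 1.87 with SE 0.53, adjusted p = 0.0473), but stood at adjusted p = 0.095 without blf-/-;drl 4KO replicate 1 and at 0.0716 with library totals in place of TMM factors. This gene alone made up 18.7% to 28.5% of the summed CPM of the members in each library. actc1a, its paralog, was at 79.8, 122.5 and 36.3 CPM in the controls, against 282, 216 and 376 CPM in the blf-/-;drl 4KO libraries. Its rise (log2 fold change 1.87 with SE 0.38, adjusted p = 0.00488) was called whichever single library was left out.

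The pair listed as ACTA1, skeletal alpha-actin, did not pass. ENSDARG00000036371 was at 60.3, 131 and 12.6 CPM in the controls, against 338, 183 and 284 CPM in the blf-/-;drl 4KO libraries (log2 fold change 1.98 with SE 0.74, adjusted p = 0.102). ENSDARG00000055618 was at 69.0, 38.6 and 8.46 CPM against 141, 56.9 and 139 CPM, with blf-/-;drl 4KO replicate 2 below control replicate 1 (log2 fold change 1.53 with SE 0.60, adjusted p = 0.0898). The alpha-actin genes are close copies of one another, so reads may have been divided among them. tpma, an alpha-tropomyosin gene whose product lies along the actin filament, was at 169, 227 and 43.5 CPM against 700.0, 263 and 858 CPM. The groups did not overlap, yet it missed the threshold (log2 fold change 2.05 with SE 0.67, adjusted p = 0.0735).

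The troponin complex sits on tropomyosin and makes the thin filament sensitive to calcium. Its fast-fibre T subunit, listed as TNNT3, is encoded by a pair of genes. ENSDARG00000030270 was at 91.6, 82.9 and 25.8 CPM in the controls, against 305, 138 and 473 CPM in the blf-/-;drl 4KO libraries (log2 fold change 2.19 with SE 0.53, adjusted p = 0.0171). ENSDARG00000068457 was at 16.1, 0.907 and 0.546 CPM in the controls, against 114, 19.5 and 144 CPM in the blf-/-;drl 4KO libraries. Its groups did not overlap, but it was spread 29.4-fold among the controls and did not pass (log2 fold change 3.97 with SE 1.39, adjusted p = 0.088).

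Of the 6 genes listed as TNNI2, the inhibitory subunit of fast fibres, 2 reached a group mean of 5 CPM or more. ENSDARG00000035958 was at 74.0, 90.1 and 26.5 CPM against 381, 190.0 and 424 CPM, 5.22-fold higher without overlap (log2 fold change 2.38 with SE 0.42, adjusted p = 0.0024). ENSDARG00000029069 was at 137, 103 and 27.9 CPM against 416, 49.1 and 649 CPM. In that gene blf-/-;drl 4KO replicate 2 fell between the controls, so the groups overlapped (log2 fold change 2.06 with SE 1.05, adjusted p = 0.235). The other 4 stayed at or below 1.70 CPM in every library. Of these only ENSDARG00000005841 was tested, and it was the sole tested member with a negative estimate (log2 fold change -0.59 with SE 0.75, adjusted p = 0.614).

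TNNC2, the calcium-binding subunit of fast fibres, was at 93.8, 153 and 20.3 CPM in the controls, against 359, 183 and 577 CPM in the blf-/-;drl 4KO libraries. The groups did not overlap and the gene did not pass (log2 fold change 2.06 with SE 0.73, adjusted p = 0.0912). NEB, the nebulin gene whose giant product runs along the thin filament, was at 23.5, 13.8 and 15.4 CPM against 87.8, 15.7 and 77.4 CPM. It was called higher although blf-/-;drl 4KO replicate 2 lay inside the control range (log2 fold change 1.78 with SE 0.57, adjusted p = 0.0425), and its call was kept in 1 of the 6 fits that left out a library, with adjusted p of 0.00389 to 0.156. TNNT1, the slow troponin T gene, had 11 reads in the 3 controls, against 5 in the 3 blf-/-;drl 4KO libraries and was not tested.

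Genes of the thick filament covered both fibre types. smyhc1, a slow myosin heavy chain, was at 27.4, 116 and 1.64 CPM in the controls, against 281, 393 and 725 CPM in the blf-/-;drl 4KO libraries. All blf-/-;drl 4KO libraries lay above all controls, but the controls differed 70.7-fold among themselves. The gene did not pass (log2 fold change 3.27 with SE 1.49, adjusted p = 0.204), while its adjusted p was 0.0165 to 0.304 when a library was left out.

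Among the fast myosin heavy chains, myhz1.1 was at 136, 22.7 and 13.1 CPM in the controls, against 657, 144 and 1267 CPM in the blf-/-;drl 4KO libraries (log2 fold change 3.59 with SE 1.37, adjusted p = 0.145). Its lowest blf-/-;drl 4KO library was just above control replicate 1. myhz2 was the steadiest of the heavy chains, at 106, 64.1 and 51.9 CPM against 194, 114 and 119 CPM. It was 1.93-fold higher without overlap and narrowly missed the threshold (log2 fold change 0.95 with SE 0.32, adjusted p = 0.0519), passing with library totals in place of TMM factors. The fast myosin heavy chain genes form a cluster of close copies, so the value of each is uncertain where a read maps to several.

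Myosin light chains bind the neck of the myosin head. Of the pair listed as MYL11, the regulatory light chain of fast fibres, ENSDARG00000053254 was at 375, 253 and 135 CPM in the controls, against 1180.4, 483 and 1418 CPM in the blf-/-;drl 4KO libraries. It rose 4.04-fold without overlap (log2 fold change 2.01 with SE 0.47, adjusted p = 0.0185). ENSDARG00000002589 was at 24.0, 8.66 and 5.18 CPM against 50.6, 9.51 and 205 CPM (log2 fold change 2.81 with SE 1.05, adjusted p = 0.0973). Here the blf-/-;drl 4KO libraries were spread 21.6-fold, and replicate 2 was within the control range.

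The pair listed as MYL1, the essential light chain of fast fibres, rose at both genes. ENSDARG00000014196 was at 187, 127 and 59.3 CPM against 432, 203 and 619 CPM (log2 fold change 1.75 with SE 0.46, adjusted p = 0.0237). ENSDARG00000017441 was at 67.1, 46.0 and 17.7 CPM against 176, 67.7 and 228 CPM (log2 fold change 1.85 with SE 0.50, adjusted p = 0.0214). Neither pair of groups overlapped, and each gene lost its call in some fits without a library, at adjusted p of up to 0.0701 and 0.0884. mybphb, which encodes a myosin-binding protein, was at 23.4, 26.8 and 7.46 CPM against 83.1, 35.9 and 137 CPM and rose (log2 fold change 2.15 with SE 0.55, adjusted p = 0.0169), at adjusted p = 0.0814 without blf-/-;drl 4KO replicate 3.

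Scaffold genes of the sarcomere rose in 3 of 3 tested cases, the TTN pair among them, beside 13.0% of all tested genes. Titin spans each sarcomere from its end to its middle and acts as a spring. Of the TTN pair, ENSDARG00000000563 was at 227, 189 and 90.2 CPM in the controls, against 533, 286 and 909 CPM in the blf-/-;drl 4KO libraries (log2 fold change 1.77 with SE 0.44, adjusted p = 0.0179). ENSDARG00000028213 was at 212, 132 and 74.7 CPM against 466, 361 and 832 CPM (log2 fold change 1.99 with SE 0.38, adjusted p = 0.00353). Neither overlapped between groups and both kept their call whichever library was left out. DES (ENSDARG00000058656), for the intermediate filament protein desmin, was at 20.2, 37.6 and 6.46 CPM against 128, 47.1 and 119 CPM (log2 fold change 2.19 with SE 0.58, adjusted p = 0.0184), at adjusted p = 0.0864 without control replicate 1. The other DES gene had 8 reads in the controls, against 4 in the blf-/-;drl 4KO libraries.

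Of the calcium genes, the pair listed as CASQ1 held the largest log2 fold changes among the tested members. Calsequestrin, listed as CASQ1, stores calcium inside the sarcoplasmic reticulum. ENSDARG00000018105 was at 1.11, 0.742 and 0.728 CPM in the controls, against 6.49, 16.9 and 32.1 CPM in the blf-/-;drl 4KO libraries (log2 fold change 4.41 with SE 0.89, adjusted p = 0.00493). ENSDARG00000038716 was at 1.92, 0.495 and 3.27 CPM against 34.7, 10.2 and 61.0 CPM (log2 fold change 4.22 with SE 0.86, adjusted p = 0.00519). Both were low in every control and did not overlap between groups. In the controls they had 15, 9 and 8 reads (ENSDARG00000018105) and 26, 6 and 36 reads (ENSDARG00000038716). They passed the count filter only with the blf-/-;drl 4KO libraries, so a fall could hardly have been called.

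atp2a1, the pump that returns calcium to the store in fast fibres, was at 115, 152 and 43.5 CPM against 531, 291 and 769 CPM, 5.12-fold higher (log2 fold change 2.36 with SE 0.48, adjusted p = 0.00771). pvalb2, a parvalbumin that buffers calcium in the cytosol of fast fibres, had the largest within-group SD of log2 level among the members of at least 5 CPM, at 2.67. It was at 67.4, 5.85 and 5.09 CPM in the controls, against 309, 9.45 and 610 CPM in the blf-/-;drl 4KO libraries. The spread among the latter was 64.5-fold, with replicate 2 far below control replicate 1, and the gene did not pass (log2 fold change 3.56 with SE 1.91, adjusted p = 0.267). cav3, the muscle caveolin of the surface membrane, was at 16.6, 27.7 and 8.91 CPM against 28.9, 25.2 and 37.7 CPM, with overlap (log2 fold change 0.79 with SE 0.51, adjusted p = 0.295).

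Creatine kinases regenerate ATP during contraction. ckma was at 103, 112 and 32.4 CPM in the controls, against 632, 279 and 858 CPM in the blf-/-;drl 4KO libraries, 7.15-fold higher (log2 fold change 2.84 with SE 0.55, adjusted p = 0.00854). ckmb was at 166, 226 and 62.6 CPM against 675, 293 and 1143 CPM, 4.64-fold higher (log2 fold change 2.21 with SE 0.62, adjusted p = 0.0426). Neither gene overlapped between groups. The call of ckma held without any single library, and that of ckmb was lost at adjusted p = 0.0999 without control replicate 1.

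Of the genes that assemble or regulate muscle rather than build it, 4 were tested and none passed, beside 13.0% of all tested genes called higher and 9.92% lower. With 4 genes, this count does not set them apart from all genes. UNC45B, a chaperone that folds myosin, was at 9.55, 18.4 and 5.91 CPM in the controls, against 20.4, 17.6 and 28.2 CPM in the blf-/-;drl 4KO libraries (log2 fold change 0.97 with SE 0.59, adjusted p = 0.273). rbfox1l, a splicing regulator of muscle, was at 24.1, 23.7 and 5.28 CPM against 37.2, 24.1 and 73.7 CPM (log2 fold change 1.34 with SE 0.61, adjusted p = 0.137). In both genes the groups overlapped, with blf-/-;drl 4KO replicate 2 inside the control range.

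The myogenic factors start the muscle program. MYOD1 was at 5.11, 6.51 and 0.091 CPM in the controls, against 13.3, 7.81 and 21.8 CPM in the blf-/-;drl 4KO libraries (log2 fold change 1.87 with SE 1.1, adjusted p = 0.251). MYOG was at 7.62, 6.18 and 12.9 CPM against 16.6, 5.38 and 7.52 CPM (log2 fold change 0.15 with SE 0.75, adjusted p = 0.910). It was highest of the controls in replicate 3, where the sum of the members was lowest. MYF5, not tested, had 6, 8 and 48 reads in the controls, against 3, 4 and 120 reads in the blf-/-;drl 4KO libraries, so that replicate 3 stood out in each group. MYF6, not tested, had 8 reads in the 3 controls, against 2 in the 3 blf-/-;drl 4KO libraries.

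**Figure D2:**
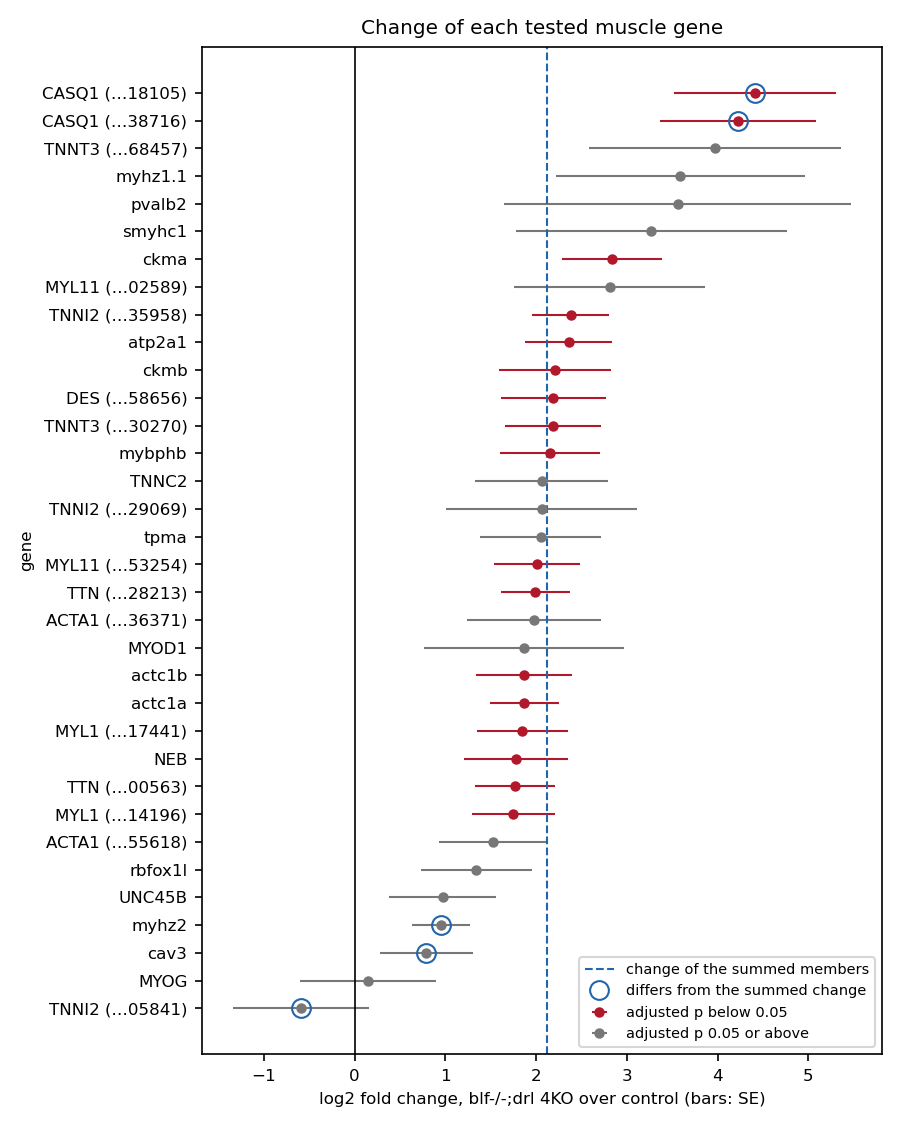
Log2 fold change of the 34 tested muscle genes, blf-/-;drl 4KO over control, with bars of the SE derived from the test statistic. Red points passed an adjusted p of 0.05, the dashed line is the change of the summed members (log2 ratio 2.12), and rings mark the 5 genes whose change differed from it.

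Whether the genes followed a single muscle share per library was asked first within groups. Of the 33 members with a mean of at least 5 CPM in a group, control replicate 3 was the lowest control for 30. blf-/-;drl 4KO replicate 2 was the lowest of its group for 31, and replicate 3 the highest for 27. Over all 10577 tested genes of that level, control replicate 3 was lowest for 32.6%, blf-/-;drl 4KO replicate 2 lowest for 34.8% and replicate 3 highest for 34.5%.

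When each gene was taken relative to the sum of the other members in the same library, its within-group SD on the log2 scale became smaller for 29 of 33 genes. The median SD was 0.97 before and 0.47 after, and 12 genes came to 0.3 or less. TNNT3 (ENSDARG00000030270) followed the others most closely, going from an SD of 0.95 to 0.09. Its share of the summed members was 2.39%, 2.5% and 2.23% in the controls, against 2.40%, 2.35% and 2.70% in the blf-/-;drl 4KO libraries, nearly constant over 6 libraries whose muscle sums differed widely. mybphb was at 0.611%, 0.810% and 0.644% of the sum in the controls, against 0.653%, 0.613% and 0.784% in the blf-/-;drl 4KO libraries.

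ckma was also even within groups, with an SD of 0.13 after scaling, but stood at a higher share in the blf-/-;drl 4KO libraries. It took 2.69%, 3.38% and 2.80% of the sum in the controls, against 4.97%, 4.77% and 4.90% in the blf-/-;drl 4KO libraries, without overlap. At the other end were pvalb2, with an SD of 2.05 after scaling, smyhc1 with 1.63 and TNNT3 (ENSDARG00000068457) with 1.33. The 4 genes whose SD became larger were myhz2, MYOG and both CASQ1 genes. These SDs are descriptions, with no test.

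**Figure D3:**
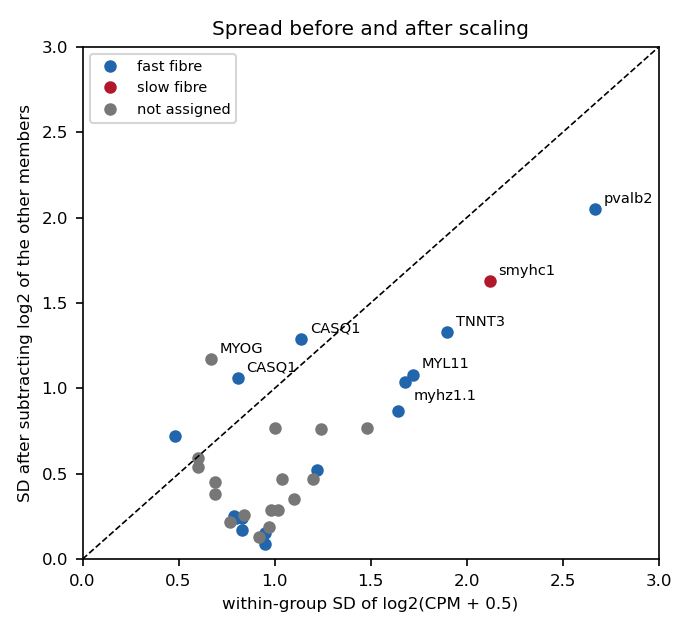
Within-group SD of log2(CPM + 0.5) for the 33 members, before (horizontal) and after (vertical) subtraction of log2 of the summed CPM of the other members. Points below the dashed line, 29 of 33, varied less after scaling, and genes with an SD above 1 after scaling are named (the TNNT3 point is ENSDARG00000068457 and the MYL11 point ENSDARG00000002589).

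Between groups, each gene's change was tested against that of the summed members in the same edgeR fit. Of the 34 tested members 5 differed from it at an adjusted p below 0.05, against 53.3% of all genes tested. The sum contains the tested member itself, and the median log2 fold change of all genes was 0.11, against 2.12 for the sum. These shares were thus largely set apart in advance, and their contrast does not show that the members moved together. Both CASQ1 genes rose by more than the sum, by 2.30 (adjusted p = 0.0351, ENSDARG00000018105) and 2.10 (adjusted p = 0.0438, ENSDARG00000038716) on the log2 scale. Since both passed the count filter only with the blf-/-;drl 4KO libraries, a difference above the sum was favoured in advance. myhz2 stood 1.17 below the sum (log2 difference -1.17, adjusted p = 0.00961) and cav3 1.33 below it (log2 difference -1.33, adjusted p = 0.0457). The fifth was the scarce TNNI2 gene ENSDARG00000005841 (log2 difference -2.69, adjusted p = 0.0138). The other 29 did not pass, which does not show that they moved by the same factor. MYOG was at a difference of -1.97 from the sum (adjusted p = 0.0515). The count fell to 2 without control replicate 3, to 2 and 3 without the first and second blf-/-;drl 4KO replicates, and to 0 without the last.

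Fast and slow fibre genes were then set against each other within each library. The 19 gene IDs listed as fast summed to 1494, 1112 and 437 CPM in the controls and to 5149, 1929 and 7595 CPM in the blf-/-;drl 4KO libraries. The slow genes, smyhc1 with a trace of TNNT1, summed to 28.1, 116 and 1.64 CPM against 281, 393 and 725 CPM. Their order of libraries was not the same. Among the controls the slow sum was highest in replicate 2 and the fast sum in replicate 1, and among the blf-/-;drl 4KO libraries the slow sum was lowest in replicate 1 and the fast sum in replicate 2.

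The ratio of the fast to the slow sum was 53.1, 9.60 and 267 in the controls, against 18.3, 4.91 and 10.5 in the blf-/-;drl 4KO libraries. The groups overlapped, since control replicate 2 lay between blf-/-;drl 4KO replicates 2 and 3. Levels of different genes are not set against one another here, because gene lengths were not used. The ratio is read across libraries alone, and it rests in each case on the reads of smyhc1.

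**Figure D4:**
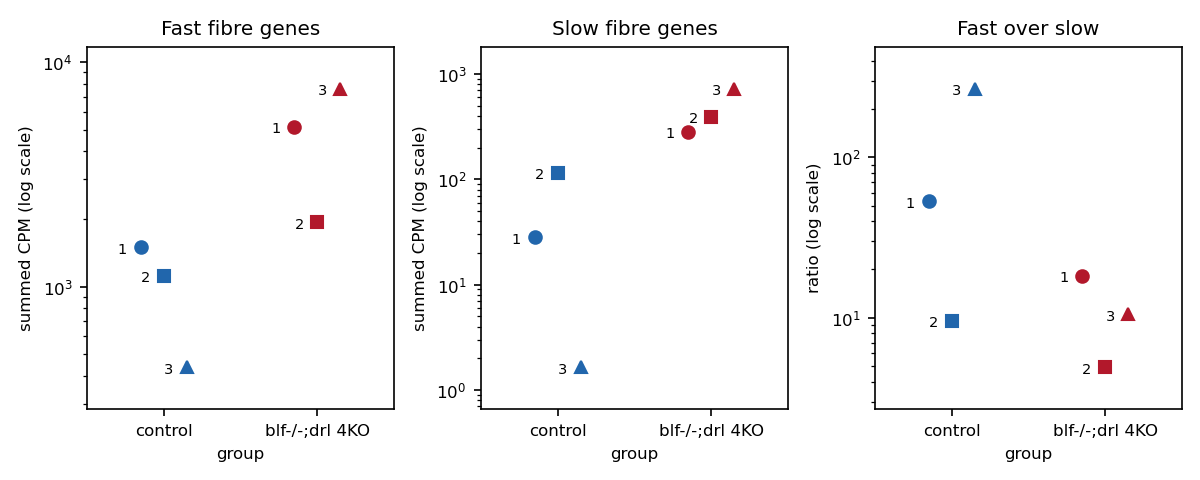
Summed CPM of fast fibre genes, of slow fibre genes and their ratio, each on a log axis, by group, with points marked by replicate number. Both sums were higher in every blf-/-;drl 4KO library than in any control, while the ratio overlapped between the groups.

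Slow fibre genes outside the list of members were read for their library order. Of the 7 such genes with a mean of at least 5 CPM in a group, blf-/-;drl 4KO replicate 1 was lowest of its group for 5, replicate 2 for 1 and replicate 3 for 1. Among the controls, replicate 2 was highest for 4 of the 7 and replicate 1 for 3. TNNC1 (ENSDARG00000037539), troponin C of slow and heart muscle, was at 3.70, 18.8 and 0 CPM in the controls, against 102, 142 and 281 CPM in the blf-/-;drl 4KO libraries (log2 fold change 4.54 with SE 1.53, adjusted p = 0.0976), and is named here after its values were seen. myl13, a myosin light chain gene, was at 15.8, 175 and 2.18 CPM in the controls, against 422, 356 and 817 CPM, and like the fast sum was lowest of its group in blf-/-;drl 4KO replicate 2 (log2 fold change 3.05 with SE 1.64, adjusted p = 0.267). smyhc2, another slow myosin gene, was at 6.29, 9.32 and 1.0 CPM against 29.8, 36.3 and 69.1 CPM and rose (log2 fold change 3.02 with SE 0.72, adjusted p = 0.0117). smyhc1 and smyhc2 are close copies, so reads may have been divided between them. Of the 6 slow genes tested 3 rose and 0 fell, beside 13.0% of all tested genes called higher and 9.92% lower. The others named by smallest p were PRDM1, a slow fibre determinant in zebrafish with roles in other tissues (log2 fold change 2.53 with SE 0.40, adjusted p = 0.00115), and tnnt2d (log2 fold change 3.96 with SE 1.24, adjusted p = 0.0402), which overlapped between groups. With 27, 4 and 9 reads in the controls, tnnt2d passed the count filter only with the blf-/-;drl 4KO libraries.

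**Figure D5:**
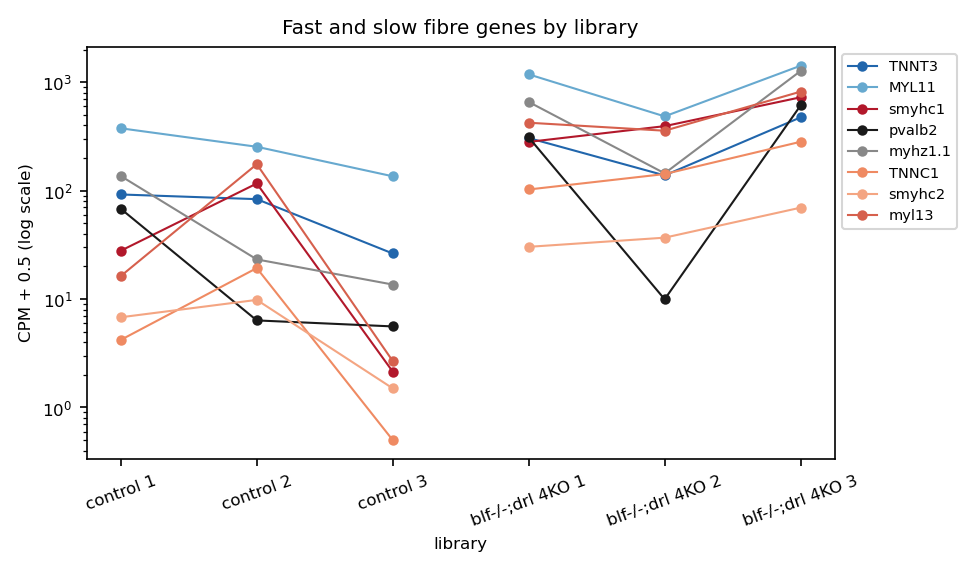
CPM + 0.5 on a log axis, by library, of fast genes in blue, grey and black (TNNT3 ENSDARG00000030270, MYL11 ENSDARG00000053254, myhz1.1, pvalb2) and slow genes in red tones (smyhc1, smyhc2, TNNC1, myl13), chosen after their values were seen. Lines join libraries of 1 group to aid the eye and stand for no order. Among the controls these slow genes are highest in replicate 2. In the blf-/-;drl 4KO group smyhc1, smyhc2 and TNNC1 are lowest in replicate 1, whereas myl13 and the fast genes shown are lowest in replicate 2.

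Other muscle genes were read from lists that do not include the members, beside 13.0% of all tested genes called higher and 9.92% lower. Of 28 tested sarcomere and Z-disc genes 9 rose, 1 fell and 18 were not called (median log2 fold change 1.54). MYOZ2 (ENSDARG00000037266), for a calcineurin-binding Z-disc protein, was at a mean of 0.239 CPM against 20.3 CPM (log2 fold change 6.34 with SE 0.99, adjusted p = 0.00104), and the chaperone gene hsp90aa1.1 rose as well (log2 fold change 1.49 with SE 0.34, adjusted p = 0.00951). This MYOZ2 gene had 4, 4 and 1 reads in the controls, so a rise was the only call open to it. Of the 35 gene IDs of this list 16 had a control mean of at least 5 CPM. The gene that fell was TMOD4, for an actin-capping tropomodulin, at 199, 172 and 130 CPM against 76.6, 54.5 and 98.4 CPM (log2 fold change -1.13 with SE 0.27, adjusted p = 0.012).

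Of 23 tested genes of the triad and of calcium handling 9 rose and 0 fell, with a median log2 fold change of 1.91. The smallest p was that of asph, whose products include the triad protein junctin and which other cells express too (log2 fold change 3.57 with SE 0.36, adjusted p = 4.66e-05). SYPL2 (ENSDARG00000000690), for a triad membrane protein, rose (log2 fold change 2.08 with SE 0.28, adjusted p = 0.000371). It was at 25.8, 34.7 and 46.8 CPM in the controls, against 143, 164 and 146 CPM in the blf-/-;drl 4KO libraries. In each group it was thus highest in the library where the muscle sum was lowest. The parvalbumin gene pvalb4 rose as well, from a mean of 0.349 to 29.9 CPM (log2 fold change 6.38 with SE 0.90, adjusted p = 0.000557). With 4, 8 and 1 reads in the controls, a rise was the only call open to pvalb4. Of the 26 triad and calcium gene IDs 12 had a control mean of at least 5 CPM. Of 9 tested genes of muscle metabolism 6 rose and 0 fell, with a median of 1.48. The 1 negative estimate was that of PFKM (ENSDARG00000014179), a glycolytic enzyme gene named here after its values were seen. It was at 24.0, 5.69 and 20.0 CPM in the controls, against 0.503, 4.7 and 0.99 CPM in the blf-/-;drl 4KO libraries. All of the latter lay below all controls, and it narrowly missed the threshold (log2 fold change -3.0 with SE 1.02, adjusted p = 0.0547). The 3 of smallest p code for glycolytic enzymes that are not limited to muscle as a class: ENO3 (log2 fold change 1.98 with SE 0.32, adjusted p = 0.00125), PGAM2 (2.56, SE 0.58, adjusted p = 0.0088) and ALDOA (ENSDARG00000034470, 1.48, SE 0.39, adjusted p = 0.0184).

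Markers of other tissues also differed between the groups, and their part in the muscle values was not tested. Their calls stand beside 13.0% of all tested genes called higher and 9.92% lower. The 8 epidermis markers, all of which rose, summed to 242 to 299 CPM in the controls and to 2111 to 3110.1 CPM in the blf-/-;drl 4KO libraries. Their sum was highest in blf-/-;drl 4KO replicate 1 and lowest in control replicate 1, an order other than that of the muscle sum. Of the 8 epidermis markers 6 had a control mean of at least 5 CPM. The other ones, krt5 and cldni, had 4, 1 and 4 reads and 5, 7 and 5 reads in the controls, so a rise was the only call open to them. Notochord markers, of which the 6 tested had positive estimates and adjusted p above the threshold, summed to 187, 7.09 and 7.28 CPM in the controls and to 528, 854 and 230.3 CPM in the blf-/-;drl 4KO libraries.

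The same shares of all tested genes, 13.0% called higher and 9.92% lower, stand beside the next counts. Of 5 tested neural markers 2 rose and 1 fell, with sums of 7.19 to 26.8 CPM against 49.1 to 89.5 CPM. Their sum was lowest in control replicate 3 and in blf-/-;drl 4KO replicate 2 and highest in control replicate 1 and blf-/-;drl 4KO replicate 3, as the muscle sum was. Of 10 tested myeloid gene IDs 8 rose, with sums of 904 to 1018 CPM against 4409 to 5818 CPM. The 12 gene IDs of the myeloid list came from 6 symbols, of which mpx had no match. Most of the tested IDs, and most of those that rose, share the symbol MFAP4 and are not separate markers. The MFAP4 gene ENSDARG00000090783 alone was at 291, 459 and 315 CPM in the controls, against 2345, 2022 and 1715 CPM. Of 5 tested endothelial markers 4 rose, with sums of 81.5 to 129 CPM against 371 to 406 CPM. All 5 were lowest of the controls in replicate 3. In the blf-/-;drl 4KO group their sum had the order of the muscle sum, but was nearly level at 385, 371 and 406 CPM. By gene, blf-/-;drl 4KO replicates 2 and 3 were each lowest for 2 of the 5. Among 6 erythroid markers 5 fell and 0 rose, and they summed to 60153 to 76156 CPM in the controls and to 7276 to 10118 CPM in the blf-/-;drl 4KO libraries. The neural marker neurog1, not tested, had 2, 2 and 0 reads in the controls and 0 reads in all blf-/-;drl 4KO libraries. No other marker of these 6 tissues was at 0 throughout a group.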

How the data were processed

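RNA-seq of sorted cells was read as raw counts per Ensembl gene, which the authors deposited as 1 file for each of the 6 libraries. Per the submitters' processing notes, bcl2fastq, FastQC 0.11.9, HISAT2 2.2.1, SAMtools 1.10, featureCounts 1.6.0 and the GRCz11 build were used. How strand and reads that map to several genes were handled was not given in the sources used here. Groups and replicate numbers came from the sample titles, and replicates of a group differed beyond sampling noise, with a chi-square of 31.8 to 68.0 per degree of freedom. The members and all gene lists were chosen with earlier results of these data known. Names were matched by zebrafish symbol (13), capital form (9), capital form without the paralog suffix (8) or RefSeq synonym (2: mylpfa as MYL11 and desma as DES, a step added after the name table was seen). No coordinates are given, because the gene table is of another build.

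The full table of deposited counts was filtered by filterByExpr, scaled by TMM and fitted with the robust quasi-likelihood method of edgeR 4.0.16 (R 4.3.3). The contrast was blf-/-;drl 4KO minus control, without covariates. Benjamini-Hochberg adjustment covered all 14517 genes tested, and the threshold was 0.05. Whether a gene's change differed from that of the summed members was tested in the same fit, with the log2 ratio of the sums added to the offset of the blf-/-;drl 4KO libraries. The error of that ratio is not carried. Both tests were checked on simulated data. Spread within groups was taken on log2(CPM + 0.5). Members with a mean of at least 5 CPM in a group and the 4 myogenic factors are given by library, and from other muscle lists at most the 3 called genes of smallest p are named. A called gene of the muscle precursor list is not reported here. Alternatives were RLE factors, library totals, other filters, DESeq2 1.42.0, limma-voom (limma 3.58.1), a replicate block, other gene matching and leaving out each library.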

Additional observations from a re-analysis of the deposited data

How the results depend on the processing

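The biological coefficient of variation was 66.5% with 3 libraries a group. The filter on counts left 7 members untested, and these had at most 7.92 CPM in any library. Over 469 alternative values of the members' log2 fold changes, 400 kept their side of the threshold, 39 lost the call, 30 gained it and 0 turned a called direction. The number of members called higher was 17, and 10 to 20 when a library was left out. It was 17 with RLE factors, 17 with library totals, 16 with no filter, 16 with at least 10 CPM in 3 libraries, 18 with limma-voom, 24 with DESeq2 and 15 without the genes matched by synonym, and 0 were called lower in any of these. The replicate numbers did not pair the libraries (correlations of 0.01, -0.04 and 0.00), and with the replicate block 10 members were called higher. Of the 17 called members 10 were called whichever library was left out.

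The number of members whose change differed from that of the sum was 5, and 0 to 6 when a library was left out. It was 3 with at least 10 CPM in 3 libraries, since the filter removed scarce members from the test, 7 with no filter and 4 with the replicate block. The log2 ratio of the summed members was 2.12, and 1.73 to 2.47 without a library. The log2 ratio of the group medians of fast over slow was -2.34, and -3.93 to -1.58 without a library, but 0.06 with geometric means in place of sums, where TNNT1, near 0 in all libraries, counts as much as smyhc1. Library totals moved the median log2 fold change of all tested genes from 0.11 to 0.42 and that of the members from 2.03 to 2.31, and RLE factors moved them to 0.06 and 1.98.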

Other observations

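Genes of earlier steps and of related muscle types were read beside 13.0% of all tested genes called higher and 9.92% lower. As before, a gene low in the controls could enter the test through the blf-/-;drl 4KO libraries. Of 14 tested muscle precursor genes 4 rose and 0 fell, with a median log2 fold change of 1.20. Estimates were positive for 11 and negative for 3, none of these 3 called: PAX3 (ENSDARG00000010192, -0.57), MEOX1 (-0.07) and DMRT2 (-1.26). The 5 gene IDs not tested, among them both PAX7 genes and tbx6, were at or below 3.38 CPM in every library. EYA1, a transcriptional cofactor in muscle and sensory precursors, was at 19.5, 23.3 and 18.2 CPM in the controls, against 98.4, 81.8 and 116 CPM (log2 fold change 2.28 with SE 0.30, edgeR adjusted p = 0.000323). Unlike the summed muscle genes, it was even among the controls. The MEF2C gene ENSDARG00000009418, for a transcription factor of muscle and vessels, rose too (log2 fold change 1.82 with SE 0.39, adjusted p = 0.00651). Of 12 tested genes of myoblast fusion and of the acetylcholine receptor 2 rose and 0 fell, a share near that of all genes. These were JAM3 (ENSDARG00000061794, log2 fold change 2.15 with SE 0.28, adjusted p = 0.000322) and jam2a (1.73, SE 0.39, adjusted p = 0.00857), adhesion genes that vessels and blood cells express as well. Estimates were positive for 10 of the 12 and negative for 2, neither called. The negative ones were the fusion gene MYMK (-1.29) and the other JAM3 gene (ENSDARG00000114589, -1.73), in which all blf-/-;drl 4KO libraries lay below all controls.

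Of 5 tested smooth muscle genes 3 rose and 0 fell, with a median log2 fold change of 1.81. Another 4 gene IDs of the list were not tested. Among these, acta2 and both CNN1 genes were at or below 0.455 CPM in every library. TAGLN (ENSDARG00000033466), for an actin-binding protein, was at 50.3, 68.5 and 57.6 CPM in the controls, against 289, 245 and 315 CPM (log2 fold change 2.27 with SE 0.21, adjusted p = 2.97e-05). MYH11 (ENSDARG00000009782) and MYL9 (ENSDARG00000008030), myosin chains of smooth muscle, rose by 1.81 (SE 0.36, adjusted p = 0.00424) and 1.56 (SE 0.48, adjusted p = 0.0375) on the log2 scale. Of 17 heart gene IDs 4 had enough reads for the test, 1 rose and 0 fell. MYBPC3 rose from a mean of 1.52 to 21.5 CPM (log2 fold change 3.81 with SE 0.87, adjusted p = 0.00903), with 38, 7 and 13 reads in the controls. Estimates were positive for 3 and negative for 1, TNNT2 (ENSDARG00000020610), named here after its values were seen. It was the only heart gene ID with a control mean of at least 5 CPM. Its mean was 16.6 CPM in the controls, against 8.46 CPM (log2 fold change -0.97 with SE 0.66, adjusted p = 0.321). MYL7, the light chain that marks heart muscle, was at or below 3.69 CPM in every library.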
